A study of Mus musculus with 25 samples.

Results

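Axon guidance ligands and receptors were followed across the dorsal root ganglia of 25 BXD mouse strains, where the cell bodies of sensory neurons lie together outside the spinal cord. Members were taken by symbol: every gene whose name starts with Sema, Plxn, Efna, Efnb, Epha, Ephb, Robo, Slit or Unc5 followed by a number or letter, together with Nrp1, Nrp2, Ntn1, Ntn4, Dcc and Neo1, with a mean of at least 10 scaled counts. This gave 73 members of 16220 genes in the deposited table, and all 73 passed the minimum. Of these, 66 belong to the guidance families and 7 carry the letters of the rule only: Unc50 and Slitrk1 to Slitrk6 are of other families and are given apart where they are named. No member lay just outside the minimum. Just inside it were Dcc with a mean of 12.2, Sema3a with 24.7 and Efna4 with 33.9.

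The BXD strains are recombinant inbred lines from crosses of C57BL6/J with DBA2/J, so that each is homozygous for 1 parent's allele at nearly every locus. Each strain had 1 RNA library, from mice 8 weeks old, and the strain was the unit compared. By the ending of the strain name, 16 strains were TyJ and 9 RwwJ, and no other treatment or genotype was labelled. Neither sex nor the number of animals per library is given in the sources used here, so spread between strains holds genetic, animal and technical differences together.

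Semaphorins, ephrins, Slits and netrins are secreted or membrane-bound cues that steer growing axons. Plexins with their neuropilin co-receptors, Eph receptor kinases, Robos, and Dcc, Neo1 and the Unc5 proteins are their respective receptors, and many act on the cytoskeleton of the growth cone. In sensory ganglia these proteins are best known for guiding axons to skin, muscle and spinal cord in the embryo, and several also act in blood vessels, connective tissue and glia.

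The values are read counts that the authors scaled to a common upper quartile and rounded, called scaled counts here. Their totals ran from 24637919 to 26860283 per library. Of the 25 libraries, 13 skipped whole values in the regular way that scaling up leaves, which implies about 20100000 to 23100000 reads behind them. The 12 others skipped none and held at least 24637919 scaled counts. No 2 libraries were identical. The pan-neuronal markers fitted the labelled tissue, with Tubb3 between 70436 and 109907 and Avil, a sensory neuron gene, between 14954 and 28042 scaled counts. Spinal cord genes summed to 12160 in BXD48 against 3308 in the next strain and a median of 592, and all 9 of these genes were above 0 in BXD48.

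Plxnc1, the receptor for the semaphorin Sema7a, was the most abundant of the guidance genes per length, with a mean of 1103 ± 146 scaled counts per kilobase of exon (SD, n = 25). Plxnd1, the receptor for Sema3e, stood at 534 ± 42.8 per kilobase, and Plxnb2, a receptor for class 4 semaphorins, at 175 ± 33.6 per kilobase. Among the 20 semaphorins, the secreted Sema3b had the highest level, 757 ± 187 per kilobase. Sema7a, which is anchored to the membrane by a lipid, followed at 540 ± 90.1 per kilobase, and the transmembrane Sema4f at 367 ± 84.7 per kilobase. The levels of Sema3b and Sema7a overlapped between strains, as did those of Sema7a and Plxnd1. The co-receptor Nrp1 lay at 293 ± 53.0 per kilobase and Nrp2 at 107 ± 13.4 per kilobase. The cue best known for acting through Nrp1, Sema3a, was the lowest semaphorin at 1.78 ± 0.776 per kilobase.

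Efna1, a lipid-anchored ligand of A-type Eph receptors, was the highest ephrin at 459 ± 61.4 per kilobase. The transmembrane ligands Efnb1 and Efnb2 had 247 ± 49.7 and 158 ± 34 per kilobase. Of the Eph receptors, Ephb6, whose kinase domain is inactive, had 289 ± 30.0 per kilobase and Ephb4 111 ± 34.7 per kilobase. The 8 A-type receptors were all lower, with means from 11.7 to 31.4 per kilobase, the highest being Epha4 with 31.4 ± 8.50. The secreted cue Slit1 had 579 ± 165 per kilobase, while Slit2 had 34.8 ± 12.1 and Slit3 20.9 ± 7.45. Exon length here is that of all annotated exons of a gene merged, 5921 bases for Slit1 and 25433 for Slit2. Before division by length, their means were 3429 and 884 scaled counts, a smaller difference. The Slit receptor Robo2 had 273 ± 46.6 per kilobase, far above Robo4 with 36.5 ± 10.5 and Robo1 with 33.1 ± 7.11. Even the highest strains for Robo4 and Robo1 lay below the lowest strain for Robo2.

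The secreted netrin Ntn1 had 249 ± 114 scaled counts per kilobase of exon and Ntn4, a netrin of basement membranes, 139 ± 51.3 per kilobase. Neo1, a receptor for netrins and repulsive guidance molecules, had 176 ± 40.01 per kilobase. Dcc, the best known netrin receptor, was the lowest of the 73, with 0.929 ± 0.416 per kilobase and 4 to 33 scaled counts in a library, where counting error alone is large. The 4 Unc5 receptors lay between Neo1 and Dcc. Of the 7 genes matched by letters only, Unc50 had the highest level, 808 ± 112 per kilobase. Libraries of this kit do not mark strand, and exons of 15 members overlap those of another annotated gene. For Efna3, Sema4c and Unc5a that other gene was also in the table, and reads of the 2 cannot be told apart.

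**Figure D1:**
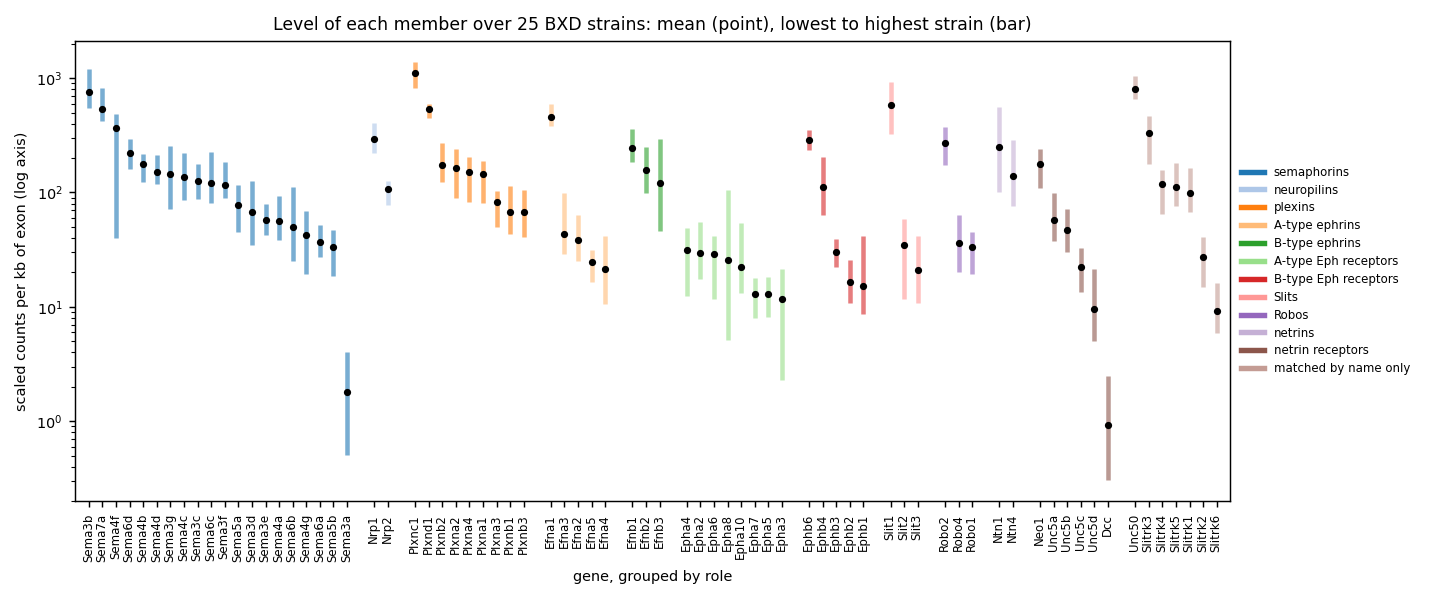
Level of each of the 73 members, in scaled counts per kilobase of exon on a log axis, grouped by role. Points are means over 25 strains and bars run from the lowest to the highest strain. Plxnc1 tops the plot at 1103 and Dcc is lowest at 0.929, and Sema4f has the longest downward bar among the abundant semaphorins.

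The guidance genes varied more between strains than the typical gene: the median SD of log2(scaled count + 1) was 0.34 over the 73 members and 0.25 over all 16152 genes tested, those with a mean of 10 or more. Over all genes tested, the share of widely spread members was near the background, however. In 18 of 73 members the 90th percentile over strains was at least 2 times the 10th, against 23.9% of all genes. This depended on the setting. With a mean of at least 50 it was 15 of 69 members against 14.3% of genes. A pseudocount of 10 gave 15 of 73 against 16.3%, and scaling to the median total 22 of 73 against 24.1%. Without BXD21, BXD36 and BXD40 it was 15 of 73 against 21%, near the background. With the trend of each library with exon length taken out it was 16 of 73 against 22.1%, also near it. The A-type Eph receptor Epha8 had the largest log2 SD of members with a mean of at least 50, 0.85, with 24, 106 and 498 scaled counts in its lowest, median and highest strain. Efnb3, the third B-type ephrin, followed with 0.70 and ran from 148 through a median of 353 to 937. Both were lowest in BXD40, and Epha8 was highest in BXD55 and Efnb3 in BXD48.

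Epha3, an A-type Eph receptor, ran from 20 in BXD21 through 97 to 186 in BXD55 (log2 SD 0.66). Ntn1 ran from 631 in BXD36 through 1361 to 3527 in BXD55 (log2 SD 0.65), and Slit2 from 298 in BXD40 through 879 to 1477 in BXD55 (log2 SD 0.58). The same strain, BXD55, thus held the highest value of Epha8, Epha3, Ntn1 and Slit2, and also of the semaphorin Sema3d, which ran from 296 in BXD36 through 524 to 1077 (log2 SD 0.51). Unc5d, a netrin receptor, ran from 46 in BXD34 through 81 to 198 in BXD5 (log2 SD 0.54). Ntn4 ran from 283 in BXD73 through 456 to 1077 in BXD5 (log2 SD 0.50), and Slit3 from 66 in BXD2 through 122 to 253 in BXD5 (log2 SD 0.50). BXD5 was the highest strain for these 3. At the other end, Plxnd1 had the smallest log2 SD of the 73, 0.12.

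Sema4f, a transmembrane semaphorin of neurons, was far lower in 1 strain than in all others. It had 210 scaled counts in BXD36 and 1626 to 2557 in the other 24 strains, with a median of 2016.5 and a mean of 2016 ± 271 (SD, n = 24). The other strains were on average 9.60-fold higher, and BXD36 held 10.4% of their median. The gap between BXD36 and the next strain was 2.95 on the log2 scale, the largest gap below the next strain of any of the 16152 genes in BXD36. Over all strains it ranked 7th among these 16152 genes for a low strain standing apart. Without BXD36 the log2 SD of Sema4f fell from 0.68 to 0.19. There is 1 library of BXD36, so this value has no replicate.

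Most neighbours and the other class 4 semaphorins stayed inside the range of the other strains. Hk2 and M1ap, the genes next to Sema4f on chromosome 6 in the annotation, had 161 and 13 scaled counts in BXD36, inside the ranges of 125 to 317 and 4 to 21 of the other strains. Dok1 and Loxl3 farther on had 478 and 199, also inside their ranges. Htra2, 4 genes from Sema4f, had 772, above the 552 to 750 of the other strains. Among the other class 4 semaphorins, Sema4a, Sema4b, Sema4c, Sema4d and Sema4g had 275, 927, 462, 1332 and 221 in BXD36, all within the range of the other 24 strains. The reference sequence of the 250 bases before the start of Sema4f is shown because this gene had the largest single-strain gap. It is the reference, from RefSeq on GRCm38.p6 at chr6:82939770-82940019 on the minus strand, not a sequence of BXD36. It has 46% G and C and holds neither motif searched, the GC box (GGGCGG, or CCGCCC on the other strand) and the TATA box (TATAAA, or TTTATA on the other strand), so no base is in capitals.
Sema4f: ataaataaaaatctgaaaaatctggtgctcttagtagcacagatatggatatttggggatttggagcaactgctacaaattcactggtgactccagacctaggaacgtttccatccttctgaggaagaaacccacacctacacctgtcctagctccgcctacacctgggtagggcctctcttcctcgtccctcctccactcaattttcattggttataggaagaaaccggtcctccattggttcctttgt

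Neo1 fell into separate levels. The strains were ordered by level and divided where the sum of squares between the sides was largest, with at least 5 strains a side, and a gene was counted where this share reached 0.8 of the whole. Neo1 had 962 to 1302 scaled counts in 9 strains (mean 1120 ± 118 SD) and 1516 to 2095 in 16 strains (1765 ± 166), a ratio of 1.58. The low strains were BXD11, BXD13, BXD15, BXD28, BXD34, BXD44, BXD55, BXD68 and BXD77, of which 5 are TyJ and 4 RwwJ. Plxnd1 met the same criterion, with 3294 to 3746 in 11 strains (3583 ± 154) and 3936 to 4309 in 14 strains (4141 ± 119), but the gap between its sides was only 0.07 on the log2 scale against 0.22 for Neo1. These 2 of 73 members stand beside 4.74% of all genes, so members at separate levels were not more frequent than elsewhere. With the trend of each library with exon length taken out, Neo1 alone met the criterion. The sides were drawn from the values themselves and carry no test.

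Of the 10 genes whose values followed Neo1 most closely over the 25 strains by Spearman's rho in size, 4 lie on chromosome 9 with Neo1, where 5.50% of annotated genes are. All 4 ran opposite to Neo1. Pstpip1, a cytoskeletal adaptor, had rho = -0.74, Snapc5, a subunit of the small nuclear RNA activating complex, -0.73, Fam219b -0.69 and Nrg4, a growth factor of the neuregulin family, -0.64. Fam219b had 1283 to 1437 scaled counts in the 9 strains low for Neo1 and 1003 to 1268 in the 16 others, with no overlap. The 5 annotated genes on either side of Neo1 followed it less closely, with rho from -0.47 to 0.47. Of the 10 genes most like Plxnd1, 0 lie on chromosome 6 with it.

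The promoters of both genes, the 250 bases before the start in RefSeq on GRCm38.p6, are shown because these are the members at separate levels, with the GC box in capitals. Neo1 is at chr9:59036442-59036691 and Plxnd1 at chr6:115995006-115995255, both on the minus strand, with 83.2% and 64.8% G and C. Each holds 1 GC box.
Neo1: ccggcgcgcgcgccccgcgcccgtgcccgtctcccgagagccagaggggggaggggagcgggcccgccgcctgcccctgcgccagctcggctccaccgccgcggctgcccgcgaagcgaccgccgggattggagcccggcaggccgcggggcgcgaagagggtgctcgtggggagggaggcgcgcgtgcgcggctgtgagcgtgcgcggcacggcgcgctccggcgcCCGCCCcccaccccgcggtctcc
Plxnd1: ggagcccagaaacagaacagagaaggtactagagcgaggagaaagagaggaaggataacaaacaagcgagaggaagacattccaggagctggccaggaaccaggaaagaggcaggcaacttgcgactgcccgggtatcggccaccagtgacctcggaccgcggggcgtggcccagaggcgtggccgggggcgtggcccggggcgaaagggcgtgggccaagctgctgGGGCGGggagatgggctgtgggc

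**Figure D2:**
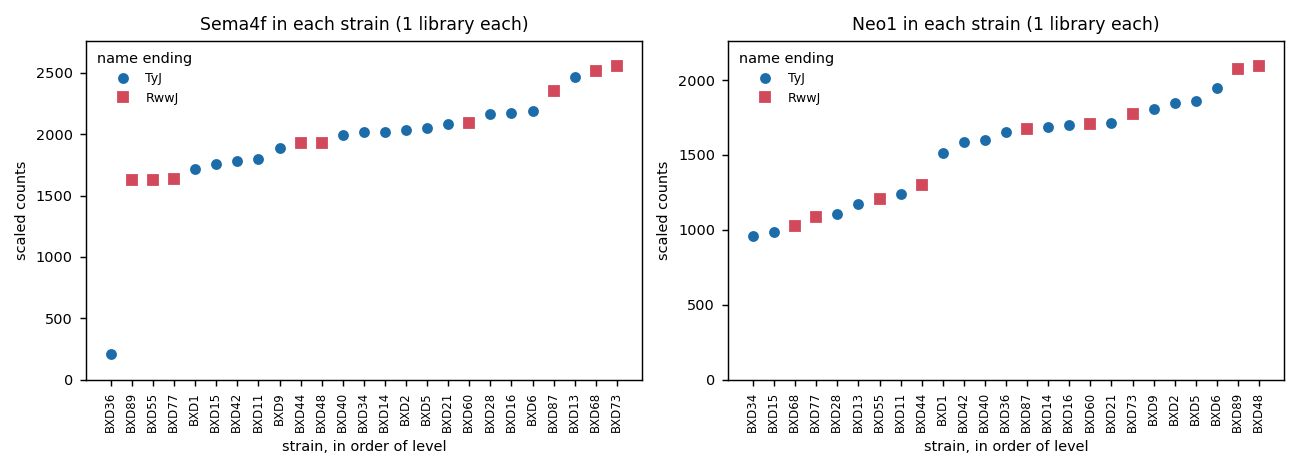
Scaled counts of Sema4f (left) and Neo1 (right) in each of the 25 strains, in order of level, with circles for TyJ and squares for RwwJ strains. Sema4f has 210 in BXD36 and 1626 or more elsewhere, and Neo1 steps from 1302 to 1516 above its 9 lowest strains.

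The libraries of BXD21, BXD36 and BXD40 stood apart from the rest for these genes. One of these 3 TyJ strains was the lowest for 38 of 73 members, against 24.9% of all genes. The members' median deviation from each gene's mean over the 25 strains was -0.34, -0.34 and -0.36 on the log2 scale. The same libraries had the most negative trend of value with exon length, a change of -0.12, -0.15 and -0.16 in log2 per doubling of length, where the highest of the 25 had 0.12. The members are long genes, with a median exon length of 6855 bases against 4302 for all annotated genes tested. With each library's length trend taken out, an alternative added after the data were seen, the members' deviations in the 3 strains were -0.25, -0.24 and -0.26. The same 3 libraries also had the highest mean log2 value of the peptidergic nociceptor markers. It was 13.18, 12.78 and 12.99, and 12.63 in BXD16, the next strain. The part of RNA quality, library preparation or nociceptor content in the low values of the members was not tested. BXD48 was highest for 16 members (7.95% of all genes) and BXD55 for 14 (5.83%).

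Between RwwJ and TyJ strains no member passed the test. With limma on log2(scaled count + 1), 0 of 73 members and 0 of 16152 genes (0% called) reached an adjusted p under 0.05, and the smallest adjusted p of a member was 0.29. At an unadjusted p under 0.05 there were 18 members, against 15.1% of all genes. Of these, 15 were higher in RwwJ, where 6.19% of genes were, and 3 were lower, where 8.92% of genes were. An exact rank-sum test over all 2042975 splits also called 0 genes after adjustment, with 12 members and 2241 genes at an unadjusted p under 0.05. The mean was higher in RwwJ for 54 members, against 48.8% of genes, and lower for 19, and the members' median difference was 0.15 in log2 while that of all genes was -0.00.

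The size of this tilt towards RwwJ moved with a few libraries. Without BXD21, BXD36 and BXD40, which are all TyJ, 5 members were higher and 2 lower at an unadjusted p under 0.05 (2.88% and 4.74% of genes), 45 means were above those of TyJ and 28 below, and the median difference was 0.04. With the length trend taken out, 6 were higher and 1 lower (4.14% and 7.92% of genes), and the median was 0.07. With any 1 strain left out, 7 to 19 members were higher at an unadjusted p under 0.05, with 50 to 56 of the means above those of TyJ. The lowest counts were 7 without BXD40 (4.37% of genes), 8 without each of BXD21, BXD36 and BXD60 (4.72%, 4.68% and 4.93% of genes) and 9 without each of BXD48 and BXD68 (4.69% and 4.63% of genes). The highest were 19 without BXD13 or BXD16 (7.66% and 7.85% of genes) and 18 without BXD28 (7.71% of genes). For these strains the share of all genes, 6.19% with none left out, moved in the same direction. It did not for every strain. Without BXD55, 15 members and 8.95% of genes were higher. Without BXD6, BXD11 and BXD14, there were 13, 12 and 12 members and 6.74%, 6.35% and 6.39% of genes.

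Epha8 had the largest difference. It had 24, 89.5 and 171 scaled counts in the lowest, median and highest TyJ strain and 107, 150 and 498 in RwwJ. The groups overlapped, although 9 of 9 RwwJ strains lay above the TyJ mean of 88.4 ± 39.3 (SD, n = 16), and the RwwJ mean was 180 ± 121 (SD, n = 9). The log2 difference was 0.998 ± 0.28 (SE; limma adjusted p = 0.29), and it lay between 0.79 and 1.07 with any 1 strain left out. BXD21, BXD36 and BXD40 had 40, 43 and 24 scaled counts, and the lowest of the other strains had 48. Without these TyJ strains the difference was 0.73 (limma adjusted p = 0.64).

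The receptor Epha10 had 95, 132.5 and 230 in TyJ and 142, 161 and 386 in RwwJ, a log2 difference of 0.43 ± 0.16 (limma adjusted p = 0.29), with 9 of 9 RwwJ strains above the TyJ mean. Its highest strain was BXD48, whose spinal cord genes were also highest; the part of spinal cord tissue in this value was not tested. The transmembrane semaphorin Sema5b had 132, 212.5 and 295 in TyJ and 186, 295 and 333 in RwwJ, a difference of 0.39 ± 0.13 (limma adjusted p = 0.29), with 8 of 9 above. In all 3 genes the ranges of the groups overlapped. Without BXD21, BXD36 and BXD40 the differences of Epha10 and Sema5b were 0.34 and 0.33 (limma adjusted p = 0.64 for each). Without BXD48 that of Epha10 was 0.30.

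In the other direction, Efna1 had 702, 865 and 1083 in TyJ and 694, 792 and 822 in RwwJ, a log2 difference of -0.18 ± 0.07 (limma adjusted p = 0.29), with 0 of 9 RwwJ strains above the TyJ mean. Robo4, the Robo of blood vessels, had 118, 224.5 and 340 in TyJ and 107, 153 and 222 in RwwJ, a difference of -0.37 ± 0.16 (limma adjusted p = 0.31), with 2 of 9 above. Unc50, matched by letters only, had a difference of -0.17 ± 0.07 (limma adjusted p = 0.31). The ranges of the groups overlapped for these genes too. Efna1 and Unc50 were highest in BXD21, BXD36 and BXD40, and without these strains their differences were -0.11 and -0.09, or -0.10 and -0.07 with the length trend taken out.

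**Figure D3:**
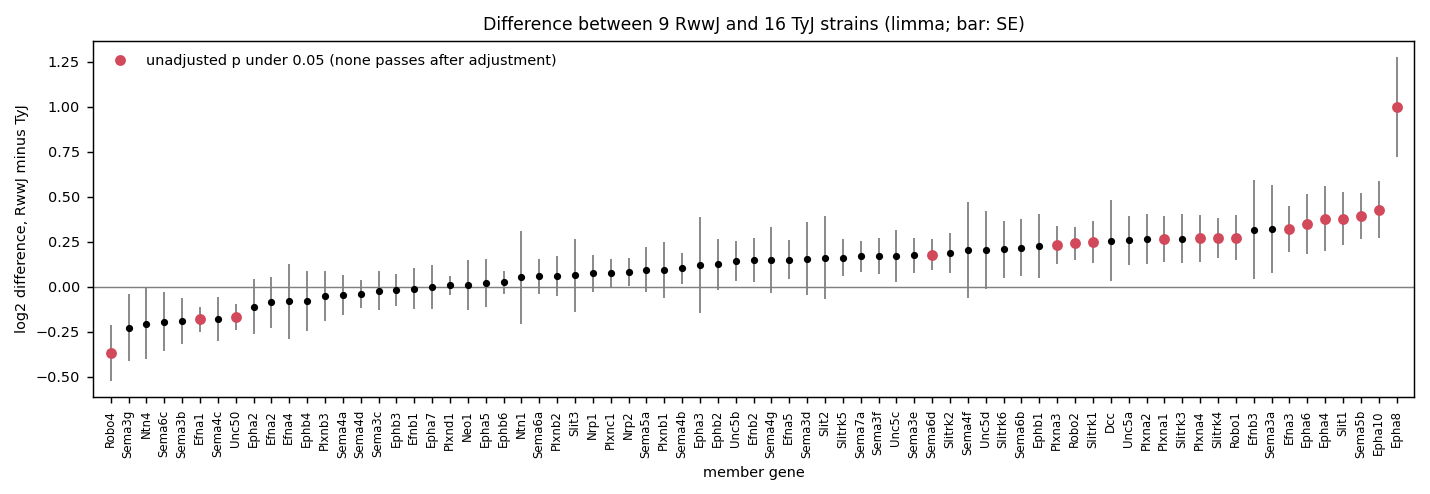
Difference between the 9 RwwJ and 16 TyJ strains in log2(scaled count + 1) for each of the 73 members, with bars of 1 SE from limma and the 18 members with an unadjusted p under 0.05 in red. Epha8 stands out at 0.998 and Robo4 is lowest at -0.37, and 0 members passed after adjustment.

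The downstream genes of the pathway varied less between strains than the members. Of 41 genes that act downstream of guidance receptors, among them regulators of the cytoskeleton and collapsin response mediators, 0 of 41 measured passed in limma, 6 were higher and 2 lower in RwwJ at an unadjusted p under 0.05 (6.19% and 8.92% of all genes), and the median difference was 0.08. Their median log2 SD over strains was 0.19, under the 0.34 of the members and the 0.25 of all genes. The list was not matched to the members for level of expression. The part of level, or of the BXD21, BXD36 and BXD40 libraries, in this difference was not tested. Of 20 other guidance ligands and co-receptors, such as adhesion molecules of the L1 family, 0 of 20 passed, 4 were higher and 0 lower at an unadjusted p under 0.05 (the same 6.19% and 8.92% of all genes), and the median difference was 0.12. Their median log2 SD was 0.30, nearer to that of the members. At least 2-fold spread between the percentiles was seen for 1 gene in each list, against 23.9% of all genes, the cytoskeletal oxidase Mical2 (450 to 1472) and the receptor kinase Met (67 to 209).

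Which members moved over strains with the cells of the ganglion was read from 10 marker scores, each the mean log2 value of a fixed list. Pearson's r with each score was tested by 100000 permutations of the strains and adjusted over all genes. Neo1 and Plxnd1 were left out because they lie at separate levels, which left 71 members and 710 relations over the same 25 strains. In whole ganglia, more cells of a type and more RNA per cell cannot be told apart. Among the 3 members of highest r with each score, 22 relations passed, and their permutation p of r lay between 1e-05, the smallest that the permutations can give, and 0.0056.

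Several members moved with the scores of neuron subtypes. With the large-diameter score (neurofilaments and markers of touch and position sense neurons), 16 members passed above 0 and 4 below, against 11.2% and 11.8% of genes. Sema7a had r = 0.85 (rho = 0.81, permutation adjusted p = 0.000614), Sema3f, a secreted ligand of Nrp2, r = 0.83 (rho = 0.82, permutation adjusted p = 0.000614) and Slitrk3, matched by letters only, r = 0.82 (rho = 0.86). Without the 2 strains of most extreme score, r of Sema7a was 0.76, of Sema3f 0.74 and of Slitrk3 0.81. Without BXD21, BXD36 and BXD40 the 20 calls became 10 (5.74% of genes above 0 and 4.71% below), of which 8 were among the 20. Sema7a and Sema3f then passed with r = 0.83 and 0.83. Efna1, Efna2, Sema4d and Ntn4 were the 4 below 0.

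With the non-peptidergic nociceptor score, Plxnc1 had r = 0.71 (rho = 0.64, permutation adjusted p = 0.0105), and r = 0.55 without the 2 strains of most extreme score. It was the 1 member above 0, against 2.60% of genes, and 5 passed below 0 (2.52% of genes). Sema3e, the ligand of Plxnd1, had r = 0.56 (rho = 0.54, permutation adjusted p = 0.06), which did not pass. Without BXD21, BXD36 and BXD40, r was 0.84 for Plxnc1 and 0.80 for Sema3e, and both passed (permutation adjusted p = 0.00399 and 0.00336). Sema4d, next by r, had 0.50 (permutation adjusted p = 0.107).

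With the peptidergic nociceptor score, 3 members passed above 0 and 23 below (11.3% and 12.1% of genes), and without BXD21, BXD36 and BXD40 0 members and 0% of genes passed. Efna1 had r = 0.64, Sema4d 0.61 and Unc50 0.54, and without these strains 0.17, 0.17 and -0.22. Of the 23 below 0, 3 kept r of similar or larger size: Efna3 went from -0.60 to -0.65, Unc5a from -0.51 to -0.70 and Sema6a from -0.55 to -0.52 (permutation adjusted p = 0.511, 0.614 and 0.831 without the strains). For the 20 others r without the strains lay between -0.36 and 0.17. By Spearman's rho 0 members passed over all 25. With the pan-neuronal score, 1 member passed above 0 and 14 below (5.15% and 9.34% of genes). The 1 above was Sema4b with r = 0.54 (rho = 0.53, permutation adjusted p = 0.0402), which did not pass by rho (permutation adjusted p = 0.0582). Sema4d had r = 0.49 (permutation adjusted p = 0.0804) and Robo2 r = 0.45 (permutation adjusted p = 0.111). Without BXD21, BXD36 and BXD40, 11 members passed above 0 and 11 below (10.5% and 13% of genes), 9 of them among the 15, and Robo2 passed with r = 0.69 (permutation adjusted p = 0.0055). Farthest below 0 were Plxnb2 with r = -0.88, Ephb4 with -0.83 and Epha3 with -0.76.

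Glial scores held few members. Sema3b moved with the myelinating Schwann cell score, with r = 0.78 (rho = 0.76, permutation adjusted p = 0.00538), and r = 0.73 without the 2 strains of most extreme score. It was the 1 member to pass, against 0.564% of genes above 0 and 0.279% below. Epha2 and Sema6c came next with r = 0.58 and 0.57 and did not pass (permutation adjusted p = 0.112 and 0.127). Sema4a had r = 0.65 with the satellite glia score (rho = 0.67, permutation adjusted p = 0.0461), against 0.322% of genes above 0 and 0.458% below. It was highest in BXD48, as was the score, and without that library r was 0.58 and 0 members passed (0.57% of genes above 0 and 0.917% below). Efna2 (r = 0.58) and Unc5d (r = 0.52) followed and did not pass (permutation adjusted p = 0.0843 and 0.123).

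Vascular and connective tissue scores held the closest relation found. Robo4 had r = 0.90 with the endothelium score (rho = 0.89, permutation adjusted p = 0.00168), r = 0.86 without the 2 strains of most extreme score and 0.90 without BXD21, BXD36 and BXD40. Ephb4, a receptor of venous endothelium, had r = 0.78 (rho = 0.72, permutation adjusted p = 0.00215), and Ntn4 r = 0.71 (rho = 0.71, permutation adjusted p = 0.00401). In all, 9 members passed above 0 and 4 below, against 8.00% and 3.75% of genes. Robo2 was farthest below 0, with r = -0.70, so that the 2 Robos ran in opposite directions with this score.

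With the mural cell score, 8 members passed above 0 and 4 below (6.48% and 2.85% of genes). Ntn4 had r = 0.81 (rho = 0.82, permutation adjusted p = 0.00245), Robo4 0.75 and Ephb4 0.67. With the fibroblast score, 12 passed above 0 and 6 below (7.77% and 4.25% of genes). Ephb4 had r = 0.80 (rho = 0.72, permutation adjusted p = 0.000868), Sema3c, a secreted semaphorin, r = 0.74 (rho = 0.77, permutation adjusted p = 0.000868) and Epha3 r = 0.72 (rho = 0.77, permutation adjusted p = 0.00167). With the macrophage score, 5 passed above 0 and 12 below (13.9% and 11.1% of genes). Ntn4 had r = 0.76 (rho = 0.82, permutation adjusted p = 0.000801), Efnb1 0.62 and Sema4a 0.55. All members named here for these 4 scores passed also without BXD21, BXD36 and BXD40.

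The balance of directions with these scores turned in some alternatives. Without BXD21, BXD36 and BXD40, 12 members passed above 0 and 19 below with the endothelium score (17.3% and 12.7% of genes), 13 and 16 with the fibroblast score (15.9% and 13.1%) and 10 and 14 with the mural cell score (14.2% and 10.8%). Each of these sets held all members that passed over 25 strains. With the length trend taken out, 9 passed above 0 and 2 below with the macrophage score (10.3% and 6.19% of genes), and 6 of these were among the 17 over the deposited values.

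**Figure D4:**
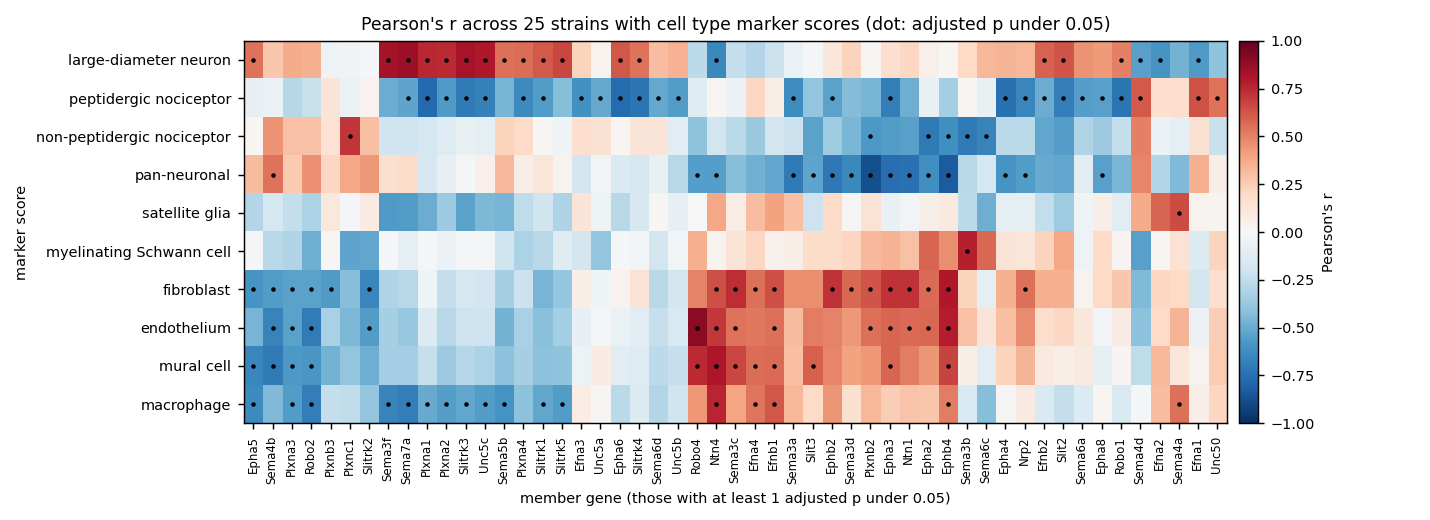
Pearson's r over 25 strains between marker scores (rows) and the 51 members with at least 1 adjusted p under 0.05 (columns, ordered by likeness of their r), from blue for -1 to red for 1, with a dot where the adjusted p is under 0.05. Robo4, Ntn4, Ephb4 and Sema3c are red with the endothelium, mural cell and fibroblast scores, and Sema7a, Sema3f and Slitrk3 with the large-diameter score.

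Ligands were then set against their receptors over the strains, in 26 pairs chosen from textbook binding partners, each p adjusted over all genes against the same receptor. Among the 26 were the co-receptors Nrp1 with Plxna4 and Nrp2 with Plxna3, which hold no ligand and did not pass. In 24 pairs the values could be pooled, and 5 of these passed. Efnb1 and its receptor Ephb2 had r = 0.71 (rho = 0.76, permutation p = 5e-05, permutation adjusted p = 0.00324), where 8.72% of all genes passed with Ephb2, and r = 0.69 without the 2 strains most extreme in Ephb2. Efnb1 had 636, 854 and 1233 scaled counts in its lowest, median and highest strain and Ephb2 135, 212 and 324, and BXD55 was highest for both. This was the 1 pair that passed without BXD21, BXD36 and BXD40 (r = 0.79, permutation adjusted p = 0.0105). Both genes also ran opposite to the pan-neuronal score, with r = -0.72 for Ephb2 and -0.52 for Efnb1 over 25 strains. Without BXD21, BXD36 and BXD40 these were -0.63 and -0.56. The part of cell content in the r of this pair was not tested.

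Slit2 and Robo1 had the highest r, 0.82 (rho = 0.66, permutation adjusted p = 0.000734), where 32.2% of genes passed with Robo1. Slit2 had 365, 457 and 298 scaled counts in BXD21, BXD36 and BXD40 and 581 to 1477 in the other 22 strains, and Robo1 319, 331 and 337 against 449 to 749. The 3 libraries lay below all others for both genes, and without them r was 0.59 (permutation adjusted p = 0.333). Sema6d and Plxna1 had r = 0.66 (permutation adjusted p = 0.00231), where 42.9% of genes passed with Plxna1. The same 3 libraries were again below all others for both genes, and without them r was 0.21.

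Efnb2 and Ephb4 had r = 0.64 (rho = 0.55, permutation adjusted p = 0.00728), where 14.5% of genes passed with Ephb4, and r = 0.46 without the 3 libraries (permutation adjusted p = 0.0884). Slit1 and Robo2 had r = 0.55 (rho = 0.59, permutation adjusted p = 0.0234), where 28.7% of genes passed with Robo2, and r = 0.50 without them (permutation adjusted p = 0.0562). Without the 2 strains most extreme in the receptor, r was 0.75 for Slit2 and Robo1, 0.47 for Sema6d and Plxna1, 0.55 for Efnb2 and Ephb4 and 0.59 for Slit1 and Robo2. With the length trend taken out, Slit1 and Robo2 had r = 0.34 (permutation adjusted p = 0.383) and Sema6d and Plxna1 r = 0.31 (permutation adjusted p = 0.243), while the 3 other pairs passed. Sema3c and its receptor Nrp2 went from r = 0.41 (permutation adjusted p = 0.134) to 0.60 (permutation adjusted p = 0.0373) and passed. Other pairs did not pass over the deposited values. Sema3a and Nrp1 had r = 0.37 (rho = 0.39, permutation adjusted p = 0.315), where 2.17% of genes passed with Nrp1. Slit2 and Robo2 had r = 0.14 (rho = 0.07, permutation adjusted p = 0.64). Ntn1 and Dcc had r = -0.38 (rho = -0.40, permutation adjusted p = 0.639), where 0% of genes passed with Dcc.

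In the 2 pairs with a receptor at separate levels, r was taken within each level. The levels were cut from the receptor's own values, so each level holds only part of its range. That alone can bring r nearer to 0, so r within a level cannot show whether the 2 genes were related. Ntn1 and Neo1 had r = -0.33 (exact permutation p = 0.396) in the 9 strains low for Neo1 and 0.03 (permutation p = 0.908) in the 16 others. Sema3e and Plxnd1 had r = -0.02 (permutation p = 0.952) in 11 strains and 0.06 (permutation p = 0.829) in 14.

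**Figure D5:**
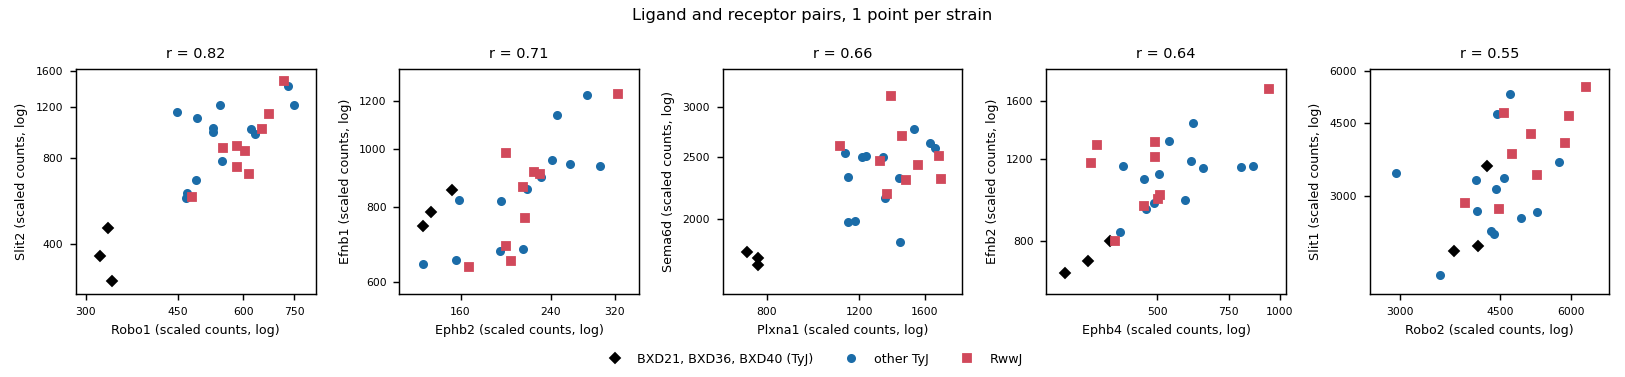
Scaled counts of the ligand against the receptor on log axes for the 5 pairs that passed, 1 point per strain, with black diamonds for BXD21, BXD36 and BXD40, circles for the other TyJ and squares for the RwwJ strains. The diamonds lie below all other points on both axes for Slit2 with Robo1 and for Sema6d with Plxna1, but among the others in Efnb1 with Ephb2.

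Promoters of 62 members were found in the RefSeq table, 79 in all, and were searched over the 250 bases before the start. A GC box was present in 68.4% of them, against 54.4% of the 15286 promoters of tested genes and 32.7% of all 32851 in the table. A TATA box was present in 2.53%, against 6.97% and 12.4%. The 2 with a TATA box were those of Slit2 and Efnb2, ligands of 2 of the pairs above, and both are shown with the GC boxes and the TATA box in capitals. Slit2 is at chr5:47982905-47983154 on the plus strand and Efnb2 at chr8:8661243-8661492 on the minus strand, with 69.6% and 72% G and C and 3 GC boxes each. TATAAA and TTTATA are each other's reverse complement, as are GGGCGG and CCGCCC, and a match is a description of these letters only.
Slit2: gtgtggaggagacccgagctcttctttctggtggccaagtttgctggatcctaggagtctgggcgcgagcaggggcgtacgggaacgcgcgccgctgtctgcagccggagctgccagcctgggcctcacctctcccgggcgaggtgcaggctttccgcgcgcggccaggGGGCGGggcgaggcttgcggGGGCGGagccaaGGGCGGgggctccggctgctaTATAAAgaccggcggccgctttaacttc
Efnb2: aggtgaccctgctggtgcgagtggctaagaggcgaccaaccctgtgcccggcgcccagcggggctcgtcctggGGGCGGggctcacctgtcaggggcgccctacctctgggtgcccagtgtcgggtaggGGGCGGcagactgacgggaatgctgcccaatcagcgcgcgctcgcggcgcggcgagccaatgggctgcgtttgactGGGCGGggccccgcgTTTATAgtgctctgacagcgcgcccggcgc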

How the data were processed

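Dorsal root ganglia of 25 BXD strains were profiled by RNA sequencing, with Trizol extraction and the Illumina TruSeq RNA v2 kit, per the labels' protocols. The submitters' processing notes name CASAVA 1.8.0, TopHat2 2.0.9 and HTSeq, and the builds NCBIM37 and mm9. The deposited unit is a score: the values show read counts per Ensembl gene that the authors scaled to a common upper quartile and rounded, so no count model was fitted. The scaling tool is not given in the sources used here. Names, chromosomes and exon lengths came from GENCODE for GRCm38, a later build, for 15697 of 16220 genes.

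Values were taken as log2(value + 1) for 16152 genes, those whose mean reached 10. RwwJ was compared with TyJ by limma 3.58.1 (R 4.3.3), its prior trended, and p-values were adjusted over all genes by Benjamini-Hochberg. Correlations used 100000 permutations, adjusted the same way. The limma fit, the permutation test of r and the division into levels were tested on simulated data. Members, lists, pairs and alternatives were chosen with earlier results of these data known. Named were the 3 members highest per kilobase in each role, the 10 of largest SD, those at separate levels, the 3 of smallest limma p each way, the 3 of highest r with each score, the pairs that passed and 3 textbook pairs; other members, Fam219b and the neighbours were named after their values were seen. Scaling to the median total, a pseudocount of 10, other filters and left-out strains were tried as alternatives.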

Additional observations from a re-analysis of the deposited data

Results flagged for a closer look

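Among the 9 RwwJ strains, 10 of the 73 members (13.7%) had 1 strain far from the others by Dixon's test, where chance flags about 1 in 20 groups and 7.30% of all 16152 genes met the same criterion. All 10 were high values, against 4.09% of genes, with 6 in BXD48 (1.32% of genes) and 4 in BXD55 (1.95% of genes). In BXD48 they were Dcc with 33 scaled counts (the next RwwJ strain had 14), the ephrin Efna3 with 242 (121), Epha10 with 386 (211), Ephb1 with 294 (116), Plxnb3 with 614 (450) and Sema6b with 442 (251). BXD48 was also the strain with the highest sum of spinal cord genes, 12160, and the part of spinal cord tissue in these values was not tested. In BXD55 they were Epha8 with 498 (181), Ephb2 with 324 (229), Ephb4 with 942 (508) and Sema3b with 5637 (3774). The sum of spinal cord genes in BXD55 was 309, under the median of 592. BXD55 had the lowest pan-neuronal score of the 25 strains, 13.64, the lowest non-peptidergic score, 11.66, both as mean log2 values, and the second highest fibroblast score; their part in these values was not tested.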

How the results depend on the processing

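No paired analysis was possible because the labels give 1 library per strain and no replicate numbers that strains of the 2 groups share. Between RwwJ and TyJ, 0 members passed under any alternative run, which were a pseudocount of 10, scaling to the median total, no filter or a mean of at least 50, array weights, no trended prior, the rank-sum test, the neuronal and Schwann cell scores as covariates, and each strain left out. The number of all genes that passed reached 6 with array weights. Members that passed with the satellite glia score fell from 1 to 0 with total scaling, without BXD48, without BXD21, BXD36 and BXD40, and with the length trend removed. The shares of genes above and below 0, 0.322% and 0.458% over the deposited values, became 0.0248% and 0.0248% with total scaling and 0.57% and 0.917% without BXD48. They became 0.18% and 0.161% without the 3 strains and 0.134% and 0.249% with the length trend removed. Without BXD21, BXD36 and BXD40, members that passed went from 26 to 0 with the peptidergic score and from 20 to 10 with the large-diameter score. The shares of genes above and below 0 went from 11.3% and 12.1% to 0%, and from 11.2% and 11.8% to 5.74% and 4.71%. Members went from 18 to 29 with the fibroblast, from 13 to 31 with the endothelium and from 12 to 24 with the mural cell score. The shares of genes rose too. They went from 7.77% and 4.25% to 15.9% and 13.1%, and from 8.00% and 3.75% to 17.3% and 12.7%. With the mural cell score they went from 6.48% and 2.85% to 14.2% and 10.8%. Pairs went from 5 to 1. With the length trend removed, chosen after the data were seen, members that passed became 7 with the peptidergic score (1.13% and 1.21% of genes above and below 0). They became 10 with the non-peptidergic (3.44% and 2.99%) and 11 with the large-diameter score (6% and 6.98%). With the myelinating Schwann cell score they became 2 (0.595% and 0.23%) and with the macrophage score 11 (10.3% and 6.19%). Members at separate levels became 1 (4.96% of genes). A share of at least 0.75 in place of 0.8 gave 7 members at separate levels (15.9% of genes). The r of Slit2 and Robo2 turned to -0.078 without the 3 strains and to -0.49 with the length trend removed. The cause of these changes was not tested. For Dcc and Sema3a, low counts limit every comparison.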
